A study of Homo sapiens with 4 samples.

Results

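To describe how the nuclear genes of the respiratory chain beyond complex I stood after METTL14 knockdown, the genes for complexes II to V and cytochrome c were read out of RNA sequencing of SK-N-BE(2) cells. Members were chosen by symbol: protein-coding nuclear genes starting with SDHA, SDHB, SDHC, SDHD, UQCR, COX4 to COX8, COX10 to COX20 or ATP5, together with CYC1 and CYCS. This gave 65 of the 60671 gene IDs in the count table, of which 58 had enough counts to test. By complex, 8 members belonged to complex II, 10 to complex III, 26 to complex IV and 20 to complex V, and CYCS was counted by itself. The rule itself reads names alone.

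SK-N-BE(2) is a widely used cell line grown from human neuroblastoma, in which the MYCN oncogene is amplified. All cells carried a lentiviral hairpin vector and had been selected with puromycin: the shNC group carried a control hairpin and the shMETTL14 group a hairpin against METTL14, a subunit of the enzyme complex that places N6-methyladenosine on RNA. Each group had 2 libraries made from total RNA. The labels do not say which METTL14 hairpin was used or whether the 2 libraries of a group came from separate cultures, so p-values measure only the spread between these libraries, which may be technical.

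Between 18925786 and 19886214 reads per library were counted in genes. METTL14 had 753 and 754 counts in shNC 1 and 2 and 303 and 321 in shMETTL14 1 and 2, and its RNA fell by 1.26 on the log2 scale (SE 0.0832, edgeR adjusted p = 3.6e-11). The 7 neuroblastoma identity markers reported here (PHOX2A, HAND2, GATA3, ISL1, TH, DBH and MYCN) had at least 1484 counts in every library. Their summed level was 4565 to 4602 CPM (counts scaled to library size) in shNC and 4832 to 4887 in shMETTL14, where MYCN and ISL1 were called higher and the other 5 lower. Most of the sum was MYCN, with 2637 and 2596 CPM in shNC 1 and 2 and 3153 and 3193 in shMETTL14 1 and 2. The 9 markers of other cell types summed to 22 to 22.2 CPM in shNC and 14.1 to 15.6 in shMETTL14. CD3E, CD68, PECAM1 and ALB had at most 4 counts in any library. Of the other 5, which were tested, 3 were called lower (COL1A1, EPCAM and VWF) and 0 higher, beside 25.3% and 27.2% of all genes. COL1A1 had the most counts, 254 and 243 in shNC and 163 and 191 in shMETTL14. The part of these marker levels in the results below was not tested. In bulk RNA, fewer cells of a type and less RNA per cell cannot be told apart.

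Complexes II, III and IV pass electrons from succinate and ubiquinol to oxygen in the inner mitochondrial membrane, with cytochrome c as the small soluble carrier between complexes III and IV. Complex V, the ATP synthase, lets protons flow back through a rotating ring and makes ATP in its catalytic head. Nuclear genes encode all of complex II, and complexes III, IV and V combine nuclear subunits with a few encoded in mitochondrial DNA, so each complex also depends on dedicated assembly factors.

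METTL14 knockdown was accompanied by higher RNA for most of these genes, with changes that were mostly small. Of the 58 tested members, 36 were called higher in shMETTL14 (62.1%), 1 was called lower and 21 were not called, at an edgeR adjusted p under 0.05. Over all 16309 genes tested, 27.2% were called higher and 25.3% lower, and the figure for tested protein-coding genes was 33% higher. The median log2 fold change was 0.21 for the members and -0.0010 for all genes tested. Called members that also changed by at least 1.5-fold numbered 8 higher and 0 lower, beside 7.44% higher and 11.4% lower of all genes. Those 8 were COX16, CYCS, SDHAF3, UQCR10, ATP5MF, ATP5MG, COX14 and COX6A1.

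The summed RNA of all 65 members was 6312 and 6656 CPM in shNC 1 and 2 and 7253 and 7707 CPM in shMETTL14 1 and 2, or 0.642% to 0.757% of gene counts. The calls were made on the same libraries and favour separated groups. In 35 of the 36 members called higher, both shMETTL14 libraries lay above both shNC libraries. Over all tested members this held for 42 of 58, and over all 16309 genes for 38%. The exception among called members was COX7C, a small complex IV subunit, whose libraries overlapped. In 33 of the 36, shMETTL14 2 lay above shMETTL14 1, and in 25 of the 36 shNC 2 lay above shNC 1. The matching shares over all genes were not taken, so this order cannot be called particular to the members. With 1 library left out, the median log2 fold change of the members was 0.15 without shNC 1 and 0.26 without shNC 2. It was 0.24 without shMETTL14 1 and 0.19 without shMETTL14 2. Under the settings reported here and all 12 alternative fits, 19 members were called higher, and the matching share over all genes is not given here.

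**Figure D1:**
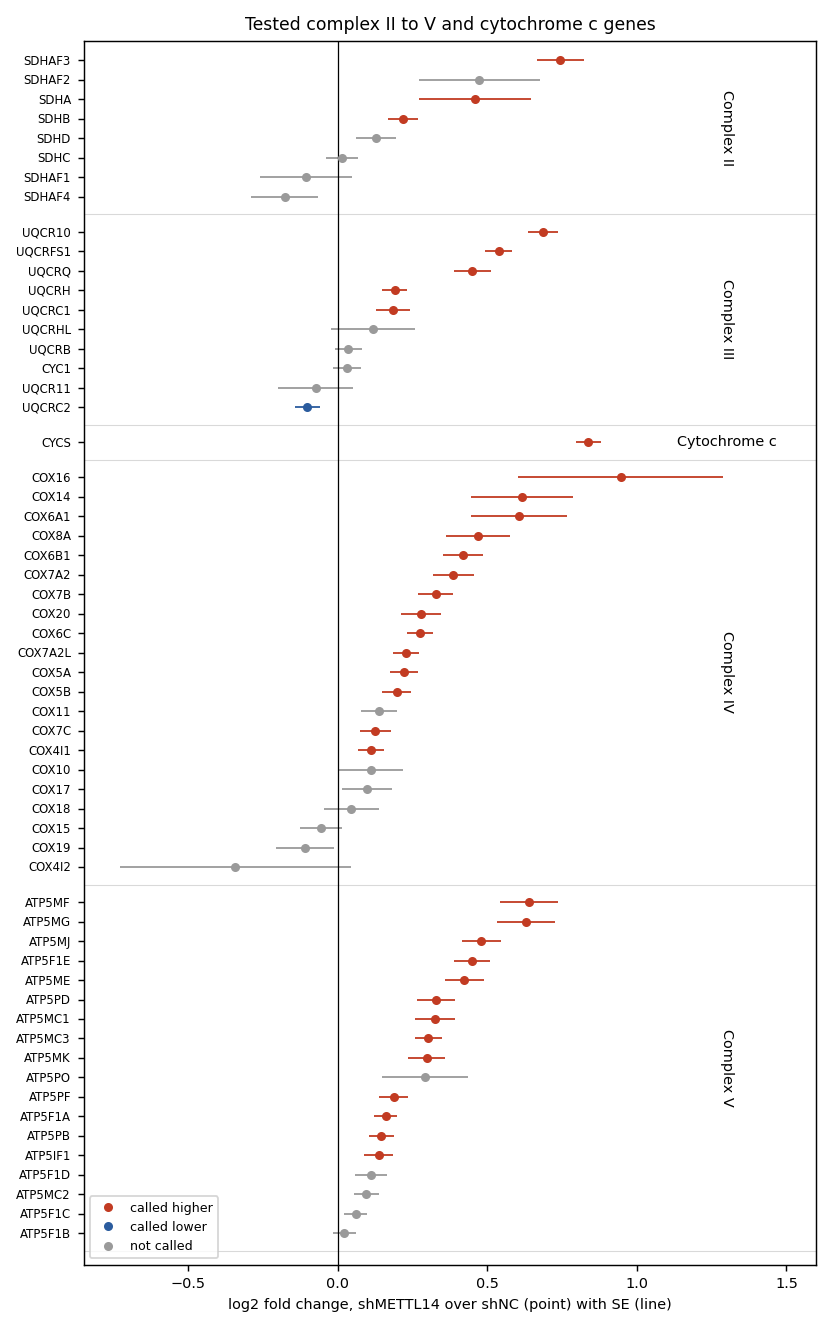
Log2 fold change (shMETTL14 over shNC, points) with its SE (lines) for the 58 tested members, grouped by complex and ordered by value within each. Of these, 36 are called higher (red), 1 is called lower (UQCRC2, blue) and 21 are not called (grey).

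**Figure D2:**
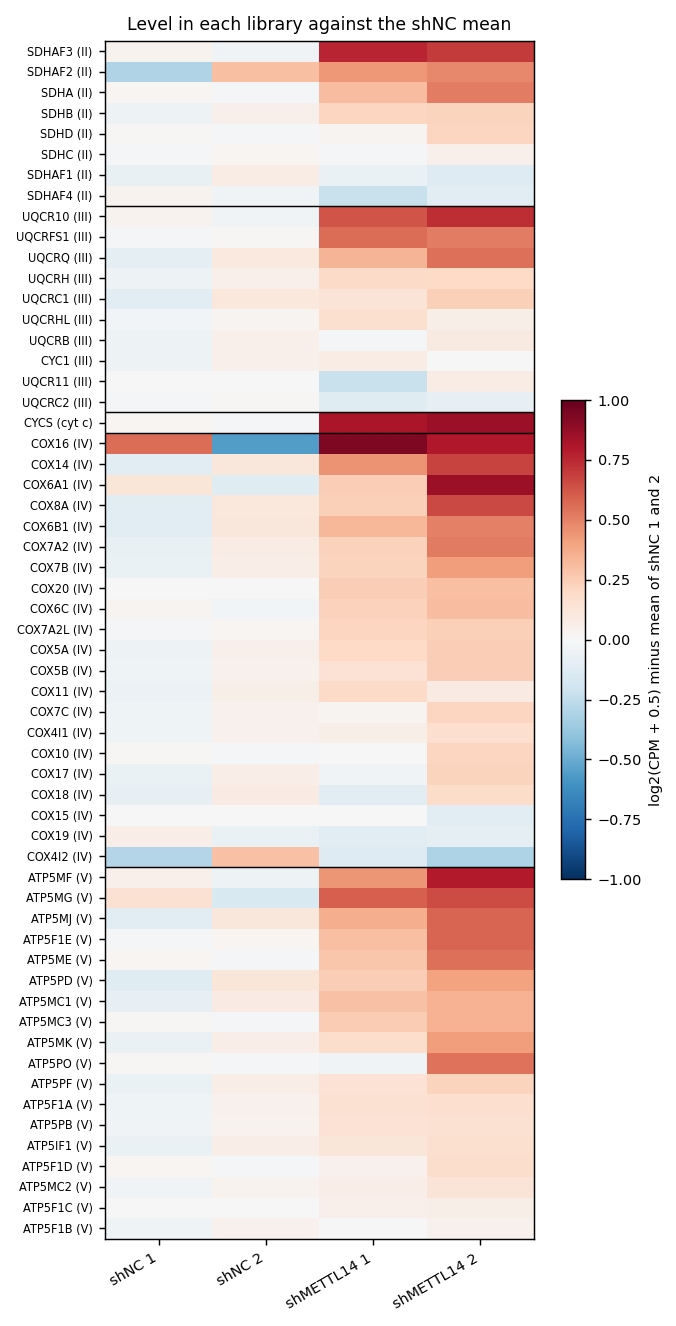
Level of each tested member in each of the 4 libraries, as log2(CPM + 0.5) minus the mean of shNC 1 and 2, on a colour scale from -1 (blue) to 1 (red). Complexes are separated by black lines. Of the 36 members called higher, shMETTL14 2 is above shMETTL14 1 in 33 and shNC 2 above shNC 1 in 25. Shares over all genes were not taken.

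Members were short genes, and short genes as a whole leaned upwards in shMETTL14. The median length of the principal transcript was 1296 bases for tested members, with a range from 305 to 13566, against 3245 bases for tested protein-coding genes. Of protein-coding genes of at most 1200 bases, 43.9% were called higher, and their median log2 fold change was 0.20. The corresponding values for longer genes were 32.1% and 0.03. Of 27 members of at most 1200 bases, 20 were called higher (median 0.29), and of 31 longer members 16 were (median 0.15). Members thus lay above the tested coding genes, themselves included, in both length classes, as counts and medians with no test of the difference. In finer classes, the member median at 1200 to 1800 bases was 0.127, against 0.129 for coding genes. At 800 to 1200 bases it was 0.218 against 0.199, and in the other classes the member median was also higher. In the shortest class, up to 800 bases, shMETTL14 2 lay above shMETTL14 1 by a median of 0.20 log2 units in the members and 0.09 in coding genes, and shNC 2 lay above shNC 1 by 0.15 and 0.08. An alternative added after seeing the data subtracted the trend of level on length, fitted in each library over protein-coding genes. With it, 28 of the 36 members were still called higher, 2 were called lower (SDHAF4 and UQCRC2) and 3 were higher by at least 1.5-fold. The count over all genes in that fit is not given here.

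**Figure D3:**
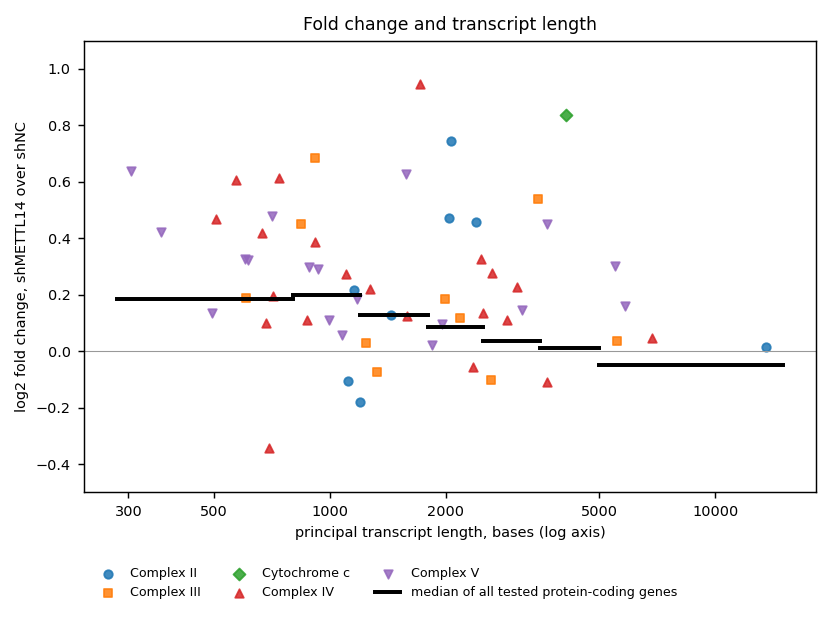
Log2 fold change of the 58 tested members (points, shaped by complex) against the length of the principal transcript on a log axis. Black bars give the median of all tested protein-coding genes in each length class, which falls from 0.19 up to 800 bases to -0.05 above 5000 bases.

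The start regions of these genes are known for binding sites of NRF1, of GABP and related ETS factors, and of YY1. Of the 65 members, 51 matched a promoter in RefSeq (GRCh38.p14), taken from 250 bases before to 50 after the gene start. The letters GCGCANGCG (NRF1) stood on either strand in 35.3% of member promoters and 11% of 15842 coding promoters, CCGGAAG (GABP and ETS) in 39.2% and 14.2%, and GCCATNTT (YY1) in 23.5% and 7.92%. At least 1 of the 3 was present in 64.7% of members against 28.3% of all. By call, 63.6% of the 33 called higher and 78.6% of the 14 tested but not called higher held at least 1, with NRF1 letters in 27.3% and 57.1%. The stretches from 140 bases before to 10 after the start are shown for the member of each complex with the highest fold change among called members that overlap no other exon, together with CYCS. Capitals mark the NRF1 letters in SDHAF3, UQCR10 and ATP5MJ and the GABP and ETS letters in SDHAF3 and COX6B1, and the CYCS stretch held none.
SDHAF3 (chr7:97117558-97117707, plus strand): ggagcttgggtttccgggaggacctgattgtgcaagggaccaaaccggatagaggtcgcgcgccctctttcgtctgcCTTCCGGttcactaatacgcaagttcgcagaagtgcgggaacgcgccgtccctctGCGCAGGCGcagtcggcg
UQCR10 (chr22:29767229-29767378, plus strand): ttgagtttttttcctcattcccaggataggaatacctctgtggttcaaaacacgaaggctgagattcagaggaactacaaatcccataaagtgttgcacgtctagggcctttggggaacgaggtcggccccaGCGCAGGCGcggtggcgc
COX6B1 (chr19:35648183-35648332, plus strand): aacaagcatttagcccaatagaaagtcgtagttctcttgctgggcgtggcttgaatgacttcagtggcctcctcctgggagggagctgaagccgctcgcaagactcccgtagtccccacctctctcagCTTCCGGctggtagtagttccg
ATP5MJ (chr14:103921520-103921669, minus strand): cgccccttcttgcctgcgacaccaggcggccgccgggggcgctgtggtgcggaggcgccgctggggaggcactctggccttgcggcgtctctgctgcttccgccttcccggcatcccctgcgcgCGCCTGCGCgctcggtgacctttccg
CYCS (chr7:25125251-25125400, minus strand): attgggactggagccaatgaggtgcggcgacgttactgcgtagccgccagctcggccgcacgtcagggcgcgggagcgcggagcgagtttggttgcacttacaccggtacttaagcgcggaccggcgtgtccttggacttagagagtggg

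The lowest adjusted p among the members belonged to cytochrome c. CYCS (ENSG00000172115, chromosome 7, 25120091 to 25125361, minus strand, GRCh38) had 3509 and 3299 counts in shNC 1 and 2 and 6013 and 6073 in shMETTL14 1 and 2. The shMETTL14 libraries lay close together and far above both shNC libraries. Its mean level was 174 ± 2.67 CPM in shNC and 311 ± 5.98 CPM in shMETTL14 (± SD, n = 2 each), or 179% of control. The increase was 0.84 on the log2 scale (SE 0.0404, edgeR adjusted p = 2.1e-13) and stayed between 0.77 and 0.86 under every alternative run. CYCS is also among the longer members, with a principal transcript of 4098 bases, and 0.05% of its 100-base words were found in another gene. HCCS, which attaches heme to cytochrome c, had 373 and 361 counts in shNC against 590 and 666 in shMETTL14 (log2 fold change 0.78, edgeR adjusted p = 1.4e-07). CYB5B, an outer membrane cytochrome b5, was also higher, by 0.22.

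**Figure D4:**
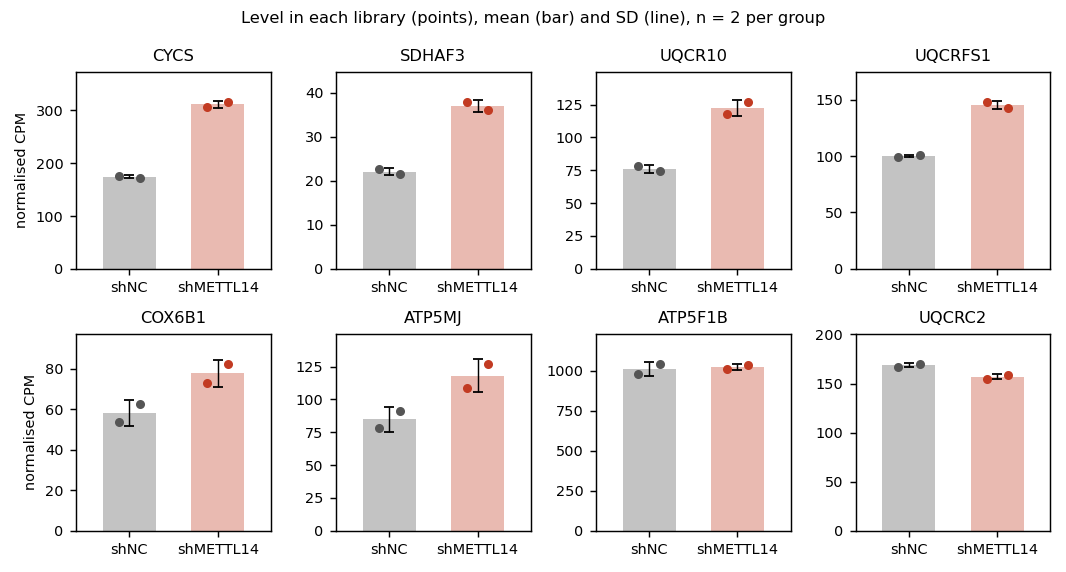
Normalised CPM in each library (points) of 8 members, with the group mean (bar, from 0) and SD (line), n = 2 per group. In CYCS, SDHAF3, UQCR10, UQCRFS1, COX6B1 and ATP5MJ both shMETTL14 points are above both shNC points, in UQCRC2 both are below, and in ATP5F1B the groups overlap.

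In complex II, which oxidises succinate in the citrate cycle, 3 of 8 members were called higher and 0 lower, with a median of 0.17 (27.2% higher and 25.3% lower over all genes). The median was 0.105 under upper quartile scaling and with the length trend removed. SDHAF3, an assembly factor for the iron-sulfur subunit, had 450 and 414 counts in shNC and 743 and 695 in shMETTL14. Both knockdown libraries were above both controls, by 0.74 on the log2 scale (SE 0.0785, edgeR adjusted p = 5.7e-08). SDHB, the iron-sulfur subunit itself, rose by 0.22 (1444 and 1496 to 1709 and 1690 counts, edgeR adjusted p = 0.00109). The flavoprotein SDHA had only 75 and 70 counts in shNC against 92 and 106 in shMETTL14 (0.46, edgeR adjusted p = 0.0448). Its pseudogene SDHAP3 held more counts, 459 and 445 in shNC against 384 and 351 in shMETTL14. SDHAP4 had 338 and 330 against 275 and 242, and SDHAP1 had 266 and 215 against 245 and 221. SDHAP3 and SDHAP4 were called lower, and SDHAP1 was not called. Whether these copies exchanged reads with SDHA was not tested. Per kilobase of transcript the control level of SDHA was 1.55 CPM, beside 65.3 for SDHB. Of the 100-base words of SDHA, 3.14% were shared with other genes, its pseudogenes among them. Its call was lost without shNC 1 (0.48, edgeR adjusted p = 0.0957), without shNC 2 (0.44, 0.12) and without shMETTL14 2 (0.35, 0.248).

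The remaining complex II genes showed no called change. The membrane anchors SDHC and SDHD had log2 fold changes of 0.01 and 0.13. SDHAF2, which helps attach flavin to SDHA, shared 32.9% of its words with a coding gene that overlaps it on the same strand. SDHAF2 had 60 and 92 counts in shNC and 104 and 106 in shMETTL14 (0.47, SE 0.203, edgeR adjusted p = 0.0559). Its control libraries differed from each other more than the knockdown ones, and without shNC 2 it was called higher (0.85, edgeR adjusted p = 0.00426). SDHD was called higher without shMETTL14 1 (0.23, edgeR adjusted p = 0.0173). The lowest values belonged to the assembly factors SDHAF4 (270 and 245 to 220 and 232 counts, -0.18) and SDHAF1 (126 and 136 to 125 and 117, -0.11), neither of which was called. After scaling, both shMETTL14 libraries were below both shNC libraries for SDHAF4, and the groups overlapped for SDHAF1.

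In complex III, 5 of 10 members were called higher and 1 lower, with a median of 0.15 (27.2% higher and 25.3% lower over all genes). The median was 0.08 without shNC 1, 0.08 under upper quartile scaling and 0.07 with the length trend removed. UQCR10, a small subunit (chromosome 22, 29767369 to 29770413), had 1557 and 1419 counts in shNC and 2310 and 2441 in shMETTL14. UQCRFS1, the Rieske iron-sulfur protein (chromosome 19, 29205321 to 29213541), had 1979 and 1937 counts against 2898 and 2751. The groups were well apart in both genes, with log2 fold changes of 0.68 for UQCR10 (SE 0.05, edgeR adjusted p = 2.0e-10) and 0.54 for UQCRFS1 (SE 0.0446, edgeR adjusted p = 1.5e-09). For UQCRFS1, 9.42% of 100-base words were shared with other genes. Its pseudogene UQCRFS1P1 had 65 and 74 counts against 113 and 131 and was likewise called higher (0.82), and reads of the pair cannot be told apart with certainty. UQCRQ, another small subunit, rose by 0.45 (edgeR adjusted p = 2.2e-06), with 20.8% of its exon bases overlapping GDF9 on the opposite strand. The hinge protein UQCRH rose by 0.19 and core subunit UQCRC1 by 0.18. The UQCRC1 call was lost without shNC 1 (0.08, edgeR adjusted p = 0.281) and without shMETTL14 2 (0.13, 0.0851), and the value was 0.30 without shNC 2.

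UQCRC2, core subunit 2 of complex III (chromosome 16, 21952660 to 21983660), was the single member called lower. It had 3334 and 3257 counts in shNC and 3032 and 3069 in shMETTL14, with both knockdown libraries below both controls. The decrease was small, at 93.2% of the control mean (log2 fold change -0.10, SE 0.042, edgeR adjusted p = 0.0461). The call was lost without shNC 2 (-0.09, edgeR adjusted p = 0.156), shMETTL14 1 (-0.08, 0.317) or shMETTL14 2 (-0.11, 0.12). UQCRC1 and UQCRC2, partners in the same core, thus had values of opposite sign. UQCR11 (216 and 207 to 180 and 219 counts, -0.07), UQCRB (0.04) and cytochrome c1, CYC1 (0.03), were not called. UQCRHL, an intronless copy of UQCRH, had 142 and 142 counts against 160 and 146 and was not called. Per length, UQCRH exceeded it 110- to 122-fold in the 4 libraries.

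In complex IV, cytochrome c oxidase, 14 of 26 members were called higher and 0 lower, 7 were not called and 5 were too low to test (27.2% higher and 25.3% lower over all genes). DESeq2 called 8 of the 14, and over all genes it called 3234 higher, beside 4438 with edgeR. With the length trend removed the median went from 0.22 to 0.12. The change was spread over the structural subunits. All 10 subunit genes of the ubiquitous type were called higher, with a median of 0.30. Of the 9 assembly factors with COX symbols, 3 were (median 0.11). Among complex IV genes outside the COX symbols, mostly assembly factors, 11 of 17 tested were called higher (median 0.35). Differences between these sets were not tested. Of the 10 subunit genes, DESeq2 did not call COX4I1, COX7A2, COX7C or COX8A (adjusted p = 0.132, 0.0527, 0.157 and 0.111). Across the 4 libraries, the summed level of complex IV was 1545, 1636, 1757 and 1923 CPM. The 10 subunit genes were COX6A1 (0.61), COX8A (0.47), COX6B1 (0.42), COX7A2 (0.39), COX7B (0.33), COX6C (0.27), COX5A (0.22), COX5B (0.20), COX7C (0.12) and COX4I1 (0.11).

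COX6B1, a subunit that faces the intermembrane space, had 1071 and 1198 counts in shNC and 1429 and 1583 in shMETTL14 (log2 fold change 0.42, SE 0.0669, edgeR adjusted p = 1.8e-05), with no overlap between groups. COX7A2 had 2004 and 2143 counts against 2439 and 2946 (edgeR adjusted p = 5.4e-05), and its log2 fold change went from 0.39 to 0.24 without shMETTL14 2. Its relative COX7A2L, which joins complexes III and IV in supercomplexes, had 2525 and 2507 against 2934 and 2917 (0.23, edgeR adjusted p = 1.4e-04). The knockdown libraries were higher for both genes, and COX7A2 was 2.65 to 3.38 times COX7A2L per length. COX6A1 had 180 and 145 counts in shNC and 194 and 297 in shMETTL14 (SE 0.161, edgeR adjusted p = 0.00322). That call rested on shMETTL14 2: without it the value was 0.26 (edgeR adjusted p = 0.188), and 33.8% of COX6A1 words were shared with other genes, the pseudogene COX6A1P2 among them. For COX8A, the value without shMETTL14 2 was 0.25 (edgeR adjusted p = 0.0388), and 34.5% of exon bases lay within another coding gene on the same strand.

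COX4I1, the ubiquitous form of subunit 4, was among the most abundant members. It had 5831 and 5981 counts in shNC and 6161 and 6521 in shMETTL14 (0.11, SE 0.044, edgeR adjusted p = 0.0383). Its call was lost without shNC 1 (0.06, edgeR adjusted p = 0.297) or shMETTL14 2 (0.07, 0.369), and the value was 0.17 without shMETTL14 1. The COX7C call was lost without the same libraries (0.08, edgeR adjusted p = 0.263, and 0.03, 0.691), and its value was 0.22 without shMETTL14 1. COX4I2, the hypoxia-linked form, had 19 and 32 counts against 22 and 18 (-0.34, not called), and COX4I1 exceeded it 148- to 288-fold per length, with overlapping groups. The muscle and testis forms were absent or nearly so. COX6A2 and COX7B2 had no count in any library, where a count of 0 allows up to 3 counts, COX6B2 and COX7A1 had at most 1 count and COX8C at most 3.

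Among the complex IV assembly factors with COX symbols, COX16, COX14 and COX20 were called higher. COX16, which serves subunit 2, had the highest fold change of all members, but its counts were few: 43 and 14 in shNC and 58 and 51 in shMETTL14 (0.95, SE 0.342, edgeR adjusted p = 0.0245). The shNC libraries differed from each other by more than the group means did, and the value was 0.38 without shNC 2 (edgeR adjusted p = 0.351) and 1.93 without shNC 1. SYNJ2BP-COX16, a readthrough gene, covers 36% of its exon bases. COX14, which serves subunit 1, had 82 and 94 counts against 124 and 144 (0.61, SE 0.171, edgeR adjusted p = 0.00454). COX20, a chaperone of subunit 2, rose by 0.28, and 72% of its exon bases overlap HNRNPU on the opposite strand. COX11, COX10, COX17 and COX18 had values from 0.05 to 0.14 and were not called, although COX11 was called without shNC 2 (0.21, edgeR adjusted p = 0.0162) or shMETTL14 2 (0.20, 0.0263) and COX17 without shMETTL14 1 (0.23, 0.0387). COX15, an enzyme of heme A synthesis, and COX19 (356 and 312 to 309 and 306 counts, -0.11) were not called.

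In complex V, 13 of 20 members were called higher and 0 lower, and 5 were not called (27.2% higher and 25.3% lower over all genes). Its median was 0.29, and all 18 tested members had values above 0, although ATP5F1B and ATP5F1C were below 0 under upper quartile scaling and with the length trend removed, and ATP5F1B also with library size alone. Without shMETTL14 2 the median was 0.17, below the 0.20 of complex IV in the same fit. The values differed by position in the enzyme. All 5 tested subunits of the membrane part were called higher (median 0.48), as were 2 of 3 genes of the c ring (0.30), 3 of 4 of the peripheral stalk (0.24) and 2 of 5 of the F1 head (0.11). The head summed to 1972, 2068, 2128 and 2217 CPM over shNC 1, shNC 2, shMETTL14 1 and shMETTL14 2, and the membrane subunits to 275.1, 288.7, 349.7 and 412.4. These differences between the parts of the enzyme were not tested. Principal transcripts were 305 to 1577 bases long in the tested membrane subunits and 997 to 5818 in the F1 head. The part of transcript length in these differences was not tested.

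The membrane subunits ATP5MF (subunit f) and ATP5MG (subunit g) had the highest values of complex V. ATP5MF had 490 and 436 counts in shNC and 635 and 797 in shMETTL14 (0.64, SE 0.0963, edgeR adjusted p = 8.2e-06). ATP5MG had 374 and 291 counts against 505 and 515 (0.63, edgeR adjusted p = 1.2e-05). Groups did not overlap for either, but the shMETTL14 libraries differed for ATP5MF, which has the shortest principal transcript of the tested members. For ATP5MF 20.9% of words were shared with other genes, and for ATP5MG 14.7%. Both have exon bases that overlap a coding gene on the same strand. Per kilobase the control level was 77.6 CPM for ATP5MF and 10.8 for ATP5MG, beside 120 for ATP5MJ. ATP5MJ, subunit j (chromosome 14, 103912288 to 103928269), had 1559 and 1749 counts against 2136 and 2450 (0.48, edgeR adjusted p = 2.6e-06). ATP5ME, subunit e, rose by 0.42, with 61.6% of its exon bases overlapping MYL5 on the opposite strand, and ATP5MK, subunit k, rose by 0.30 (0.18 without shMETTL14 2). ATP5MGL, a relative of subunit g, had at most 3 counts, and the readthrough gene ATP5MF-PTCD1 had 3 to 11, too few to test.

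Subunit c of the rotating ring is encoded by 3 genes whose mature products are identical. ATP5MC1 had 762 and 818 counts in shNC and 974 and 993 in shMETTL14 (0.32, edgeR adjusted p = 3.6e-04), and ATP5MC3 had 2696 and 2539 against 3125 and 3285 (0.30, edgeR adjusted p = 6.8e-06). ATP5MC2, the most abundant, had 4669 and 4715 against 4908 and 5056 (0.10, edgeR adjusted p = 0.0604), a value not called here but called without shNC 2 (0.14, 0.0155) or shMETTL14 1 (0.13, 0.0497). Its share of subunit c RNA was 57.5% and 58.4% in shNC and 54.5% and 54.2% in shMETTL14. The share of ATP5MC3 was 33.2% and 31.5% against 34.7% and 35.2%, and that of ATP5MC1 was 9.38% and 10.1% against 10.8% and 10.6%. The groups did not overlap in any of these shares, which cannot reach an exact permutation p below 0.333 with 2 libraries per group.

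The F1 head held the most abundant members. ATP5F1B, the catalytic beta subunit, had 19506 and 19991 counts in shNC and 19860 and 19987 in shMETTL14 (0.02, not called), the highest level per kilobase of the tested members at 550 CPM in shNC. ATP5F1C, the gamma subunit, had 5332 and 5142 counts against 5444 and 5398 (0.06, not called). Both values were near 0, and their sign turned under upper quartile scaling. ATP5F1A, the alpha subunit, rose by 0.16 (9480 and 9624 to 10624 and 10583 counts, edgeR adjusted p = 0.00156), and that call was lost under upper quartile scaling. ATP5F1E, the epsilon subunit, rose by 0.45 (3398 and 3351 to 4162 and 4989 counts, edgeR adjusted p = 1.7e-06), with 23.2% of its exon bases overlapping TUBB1 on the opposite strand. ATP5F1D, the delta subunit (0.11), was called only without shMETTL14 1 (0.18, edgeR adjusted p = 0.0197).

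In the peripheral stalk, ATP5PD rose by 0.33 (0.21 without shNC 1), ATP5PF by 0.19 and ATP5PB by 0.15. Without shNC 1, the ATP5PF call (0.11, edgeR adjusted p = 0.0641) and the ATP5PB call (0.11, 0.0523) were lost. ATP5PO, the subunit that ties the stalk to the head, shared 67.1% of its words with a coding gene that overlaps it on the same strand. ATP5PO had 225 and 212 counts in shNC and 213 and 318 in shMETTL14 (0.29, edgeR adjusted p = 0.0953). Its shMETTL14 libraries lay on either side of the controls, and without shMETTL14 1 it was called higher (0.57, edgeR adjusted p = 1.3e-04). ATP5IF1, the inhibitory factor, rose by 0.14, a call lost without shNC 1 (0.07, edgeR adjusted p = 0.286) or shMETTL14 2 (0.12, 0.104), and the value was 0.21 without shNC 2.

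Calls were counted apart for members that overlap another coding gene. Of 34 tested members without an exon overlapping a coding gene, 21 were called higher and 1 lower, and of 24 with such an overlap 15 were called higher (27.2% and 25.3% over all genes). Among 139 pseudogene and other copies whose symbols match the rule, 96 had no count, 10 could be tested, 2 were called higher and 2 lower. The copies called higher were UQCRFS1P1 and COX5BP6 (17 and 10 to 31 and 27 counts), and those called lower were SDHAP3 and SDHAP4.

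The other genes of the pathway were read from lists. The mitochondrially encoded partners had 4 of 6 members called higher and 0 lower, beside 27.2% and 25.3% of all genes: MT-CO2 (0.51), MT-CYB (0.51), MT-ATP6 (0.50) and MT-CO3 (0.34). MT-CO1, the catalytic subunit of complex IV, had 348339 and 340928 counts in shNC and 371976 and 342850 in shMETTL14 (0.06, not called), and after scaling shMETTL14 2 (17814 CPM) lay just above shNC 2 (17804 CPM). MT-ATP8 had 87 and 102 against 115 and 133 (0.40, edgeR adjusted p = 0.0558). Reads of these genes can be shared with nuclear copies. Of the NDUF subunit genes of complex I, which passes electrons from NADH, 25 of 37 tested were called higher and 0 lower, with a median of 0.33 (27.2% and 25.3% over all genes).

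Assembly factors were counted by complex, beside 27.2% of all genes called higher and 25.3% lower, and differences between these lists were not tested. Of 6 complex III factors, 2 were called higher, UQCC3 (0.63) and UQCC2 (0.18), and 3 lower, TTC19 (-0.75), UQCC1 (-0.44) and LYRM7 (-0.29). TTC19, which helps maintain complex III after the Rieske protein is inserted, had 839 and 734 counts in shNC and 430 and 498 in shMETTL14 (edgeR adjusted p = 1.6e-07). The Rieske protein gene UQCRFS1 itself was higher, as given above. For complex IV, 11 of 17 tested genes outside the COX symbols were called higher and 1 lower, with a median of 0.35. This list also holds NDUFA4 (0.35, called higher), which is a complex IV subunit and not an assembly factor. COA4 was the highest (2604 and 2639 to 3971 and 4050 counts, 0.62, edgeR adjusted p = 1.0e-10) and COA5 the one called lower (-0.22). Of 6 complex V factors, TMEM70 alone was called higher (0.42), and 0 were called lower.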

How the data were processed

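The authors deposited raw read counts per Ensembl gene ID for the 4 libraries, with no normalization. The submitters' processing notes name HISAT2 2.1.0, StringTie 1.3.6, HTSeq 0.13.5 and edgeR on GRCh38, without roles. The annotation release and the strand setting are not given in the sources used here, so overlapping genes on opposite strands and near-identical copies may have lost or exchanged reads. Lines that name no gene (19.1% to 19.9% of counts) entered neither the library sizes nor the tests. There were 0 other sample columns.

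Of 60671 gene IDs, 60401 matched a gene name table and 58453 GENCODE 29, which gave types, coordinates and principal transcript lengths. Of 204 symbols that match the rule, 65 were protein-coding. Differential expression was tested with the quasi-likelihood F-test of edgeR 4.0.16 (R 4.3.3), using TMM scaling, a design of group alone and filterByExpr defaults (minimum count 10, minimum total 15), which kept 16309 genes. Benjamini-Hochberg adjustment ran over every tested gene, with calls at an adjusted p under 0.05. CPM values are TMM-scaled, levels per kilobase divide them by principal transcript length, and SEs come from the F statistic and cover the spread between these libraries. An exact permutation test of 2 against 2 libraries cannot go below p = 0.333. The procedure was tested on simulated data.

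Members were named by the symbol rule, with counts in every library for CYCS, the 2 highest and 2 lowest of each complex, members called lower, isoform pairs and the 3 subunit c genes, and, for each list, its highest and lowest called gene and the mitochondrially encoded partners. Other values were given for calls that rested on 1 library, and these were chosen after the values were seen. Members and lists were chosen with earlier results of these data known. Of the cell identity markers, 1 is not reported here. Exon overlaps and shared 100-base words were computed from GENCODE 29 and its transcripts. Alternatives were RLE, upper quartile and library size scaling, no filter, a filter of 10 counts in every library, a replicate block, DESeq2 1.42.0, leaving out each library, members without coding overlap and, added after seeing the data, removal of the length trend by a loess fit with span 0.3.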

Additional observations from a re-analysis of the deposited data

How the results depend on the processing

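Members called higher, 36 as reported, numbered 26 (DESeq2) to 40 (replicate block) under the other fits that kept every library. They numbered 21 among members without a coding overlap. Called with at least 1.5-fold, the 8 became 4 under upper quartile scaling, 5 with library size alone, 3 with the length trend removed and 5 to 11 with 1 library left out. The 1 member called lower became 0 without a filter, 0 with DESeq2, 2 with the length trend removed and 0 to 1 with 1 library left out. Complex IV members called higher went from 14 to 8 with DESeq2, and complex II members from 3 to 1 with the length trend removed. Over all genes, those called higher went from 4438 to 3234 with DESeq2 and to 4619 with the replicate block. The complex V median of 0.29 became 0.18 with the length trend removed and 0.17 to 0.35 with 1 library left out. The cause of these shifts was not tested. Of single genes, ATP5F1C turned to -0.0083 under upper quartile scaling and -0.0568 with the length trend removed. ATP5F1B turned to -0.0462 under upper quartile scaling, -0.0236 with library size alone, -0.0292 with the length trend removed, and ran from -0.0291 to 0.0737 with 1 library left out. COX4I1 turned to -0.0185 with the length trend removed. With 1 library left out, COX4I2 ran from -0.70 to 0.12 and UQCR11 from -0.2267 to 0.0760. The median over all members stayed between 0.14 and 0.26 under every alternative run. Same-numbered libraries deviated together only weakly (Pearson 0.07, Spearman 0.04 across genes, which are not independent). In the 36 members called higher, library 2 lay above library 1 in 33 for shMETTL14 and in 25 for shNC, with no share over all genes taken. The labels do not say whether same-numbered libraries were handled together. With the replicate block, 8926 genes were called and the members called higher were the 36 and ATP5MC2, ATP5PO, COX11 and SDHAF2. Counts under 100 in at least 1 library limit COX16, COX4I2, COX14, SDHA and SDHAF2.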

Other observations

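The citrate cycle, which feeds complex II, had 8 of 14 enzyme genes called higher and 2 lower in shMETTL14, with a median log2 fold change of 0.15 (27.2% higher and 25.3% lower over all genes). The increases were small. IDH3A, a subunit of the NAD-dependent isocitrate dehydrogenase, had the highest (680 and 634 counts in shNC, 844 and 830 in shMETTL14, 0.36, edgeR adjusted p = 1.5e-04). The decreases were larger. SUCLG2, the GTP-forming beta subunit of succinyl-CoA ligase, had 1035 and 965 counts against 540 and 495 (-0.94, edgeR adjusted p = 3.3e-10), while SUCLA2, the ATP-forming beta subunit, was called higher (0.26). DLD, the dihydrolipoamide dehydrogenase shared by several 2-oxoacid dehydrogenases, was called lower (-0.49).

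Among 12 genes listed as regulators of mitochondrial gene expression, 6 were called higher and 2 lower (27.2% and 25.3% over all genes). PPARGC1A, a coactivator of mitochondrial biogenesis, had few counts (22 and 23 against 44 and 51, 1.08, edgeR adjusted p = 0.00531), and PPRC1, a related coactivator, was called higher at greater depth (1622 and 1570 against 2529 and 2263, 0.60). PPARGC1B, GABPB1, TFB2M and TFAM were also called higher, by 0.53, 0.39, 0.34 and 0.27. ETS1 (2595 and 2494 against 1620 and 1601, -0.65) and GABPA (-0.50) were called lower, and GABPA shares exon bases with ATP5PF on the opposite strand. Whether ETS1 acts on mitochondrial genes in these cells was not tested. NRF1 (419 and 400 against 337 and 369, -0.20, edgeR adjusted p = 0.0676), YY1, ESRRA and POLRMT were not called.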
